A study of Mus musculus with 6 samples.

Results

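The 8 genes described here code for 5 receptors and 3 ligands of the TNF family. They were taken by name from the 18122 genes of the count table. The receptors were Tnfrsf18 (GITR), Tnfrsf9 (4-1BB), Tnfrsf4 (OX40), Tnfrsf25 (DR3) and Tnfrsf14 (HVEM), and the ligands were Tnfsf4 (OX40L), Tnfsf14 (LIGHT) and Tnfsf11 (RANKL). RNA had been sequenced from cultured ILC2s that were sorted from mouse lung, with 3 libraries from ICOS KO mice of the strain C.129S4-Icostm1Shr/J and 3 libraries from WT mice of the strain BALB/C BYJ. ILC2s are tissue lymphocytes without antigen receptors that make type 2 cytokines such as IL-5 and IL-13. ICOS is a co-stimulatory receptor of the CD28 family that these cells carry on their surface.

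Both the Icos allele and the strain differed between the groups, so the missing receptor and any other difference between the strains cannot be told apart. The sources used here give neither the sorting gate, the culture conditions, nor whether the libraries of a group came from separate mice. The p-values therefore rest on differences among libraries that may be only technical repeats.

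Receptors of the TNF family are trimeric proteins that bind trimeric ligands on neighbouring cells or in solution. Most of those described here recruit TRAF adaptors and switch on NF-kB, which prolongs survival and cytokine production in activated lymphocytes. Among these receptors, DR3 carries a death domain. In lung, OX40L on ILC2s is known as a co-stimulator of T cells, and GITR and DR3 are known to raise cytokine output when their ligands bind to ILC2s. The comparison made here asks how the RNA of receptors and of ligands differed between ICOS KO and WT cells.

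Library totals were 13738062 to 15543034 estimated counts in ICOS KO and 14976130 to 18736474 in WT. Levels are given as CPM, the count of a gene scaled to a common library size after TMM scaling, which corrects each library total for composition. The ± after a CPM value is the SD over 3 libraries. The targeted gene Icos had 140, 170 and 161 CPM in the ICOS KO libraries, against 434, 462 and 502 CPM in the WT libraries. Icos RNA was thus lower but still present in ICOS KO, with a log2 fold change of -1.57 ± 0.10 (SE, n = 3 each) and an adjusted p of 1.27e-05. Which part of the transcript the allele removes is not given in the sources used here. All 14 ILC2 markers listed were tested. Among them were the cytokine gene Il5, at 5694 to 6263 CPM in ICOS KO and 5970 to 7027 CPM in WT, and the transcription factor gene Gata3, at 706 to 810 CPM in ICOS KO and 812 to 913 CPM in WT, neither of which was called. Thy1 was low, at 8.25 ± 1.74 CPM in ICOS KO and 12.9 ± 1.74 CPM in WT. Of the 14, 4 were higher in ICOS KO, namely Klrg1 (2.32-fold), Areg (2.66-fold), Arg1 (1.65-fold) and Il1rl1 (1.36-fold), and Rora and Icos were lower. The groups also lay on opposite sides of the first principal component of all tested genes (40.4% of the variance). ICOS KO replicate 2 lay farthest out on it and had the highest mitochondrial share of counts, 0.616%, against 0.329% and 0.492% in the other ICOS KO libraries and 0.263% to 0.422% in WT. The part of these differences in the results was not tested.

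All 8 genes passed the filter on low counts and were tested with edgeR's quasi-likelihood test, with p-values adjusted over all 13691 tested genes and a threshold of 0.05. Of the 5 receptors, 2 were higher in ICOS KO and none was lower. Of the 3 ligands, 1 was lower and none was higher. Over all tested genes, 1.29% were higher and 2.01% were lower in ICOS KO, or 3.29% in either direction. Libraries of the groups did not overlap for 3 of the 8 genes, and for 24.4% of all tested genes. The median log2 fold change was 0.17 over the 5 receptors and -0.27 over the 3 ligands, beside 0.0 over all tested genes.

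**Figure D1:**
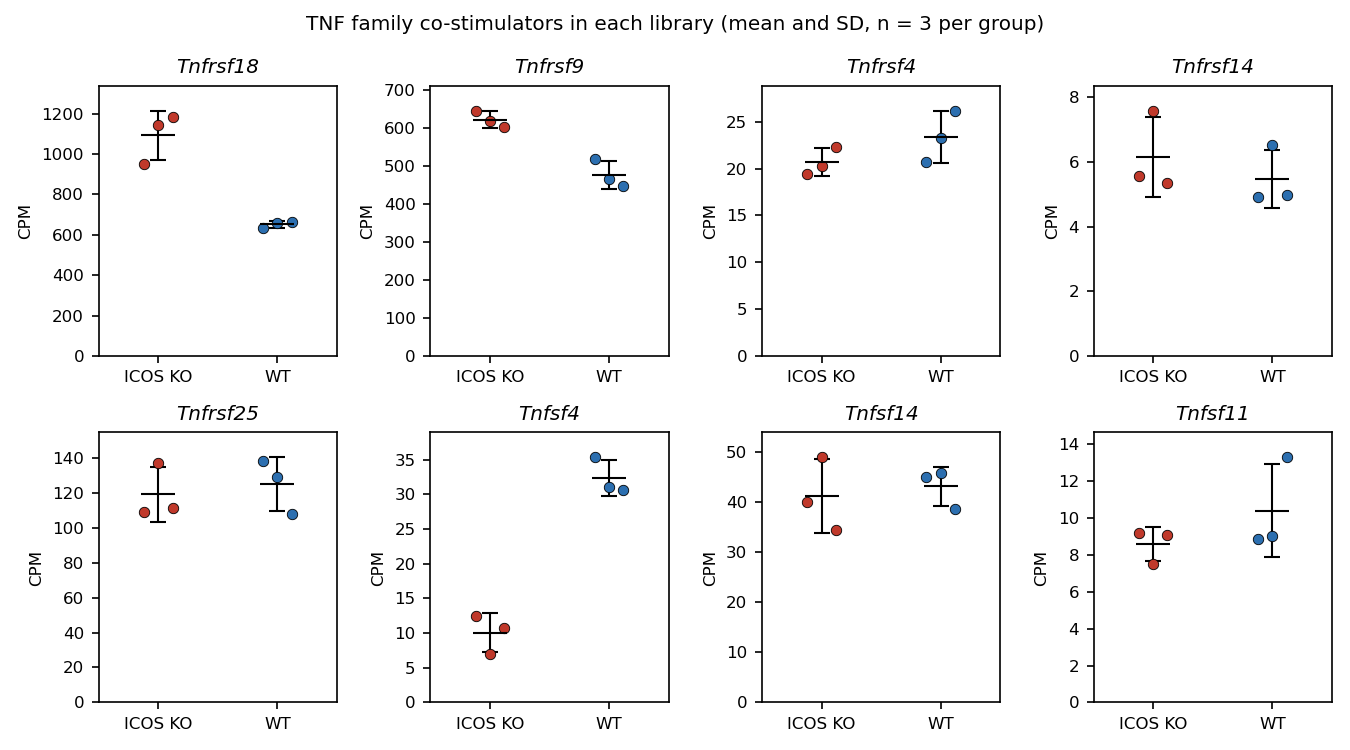
Level of each of the 8 genes in CPM (y axis, linear, starting at 0) in the 3 ICOS KO and 3 WT libraries. Points are libraries and bars are the mean and SD; Tnfrsf18 at 952 to 1182 CPM and Tnfrsf9 at 603 to 647 CPM lay above all WT libraries in ICOS KO, Tnfsf4 at 6.92 to 12.4 CPM lay below them, and the other 5 genes overlapped.

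To compare the genes with one another, levels were divided by exon length. On this scale GITR stood first in both groups, with 717 ± 80.9 CPM per kb of exon in ICOS KO and 428 ± 11.0 in WT (SD, n = 3 each). It ranked 50th of 13363 tested genes with a known length in ICOS KO and 95th in WT, so it was among the most abundant messages of these cells. 4-1BB followed, with 229 ± 8.32 CPM per kb in ICOS KO and 175 ± 13.4 in WT. DR3 had 52.3 ± 7.02 CPM per kb in ICOS KO and 54.9 ± 6.73 in WT. These receptors were followed by LIGHT, the most abundant of the 3 ligands, with 22.2 ± 3.99 CPM per kb in ICOS KO and 23.3 ± 2.1 in WT. The ranges of these neighbouring ranks did not overlap within either group.

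The lower places in the order differed between the groups. In ICOS KO, OX40 had 15.1 ± 1.11 CPM per kb and its ligand OX40L had 5.44 ± 1.53, while in WT they had 17.1 ± 2.04 and 17.6 ± 1.45. OX40 and OX40L thus overlapped in WT and were separated in ICOS KO, where OX40L overlapped the range of HVEM. HVEM, at 4.29 ± 0.863 CPM per kb in ICOS KO and 3.81 ± 0.629 in WT, and RANKL, at 3.84 ± 0.413 in ICOS KO and 4.65 ± 1.13 in WT, held the last places and overlapped each other in both groups. OX40L ranked 6374th of 13363 genes in ICOS KO and 3172nd in WT.

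**Figure D2:**
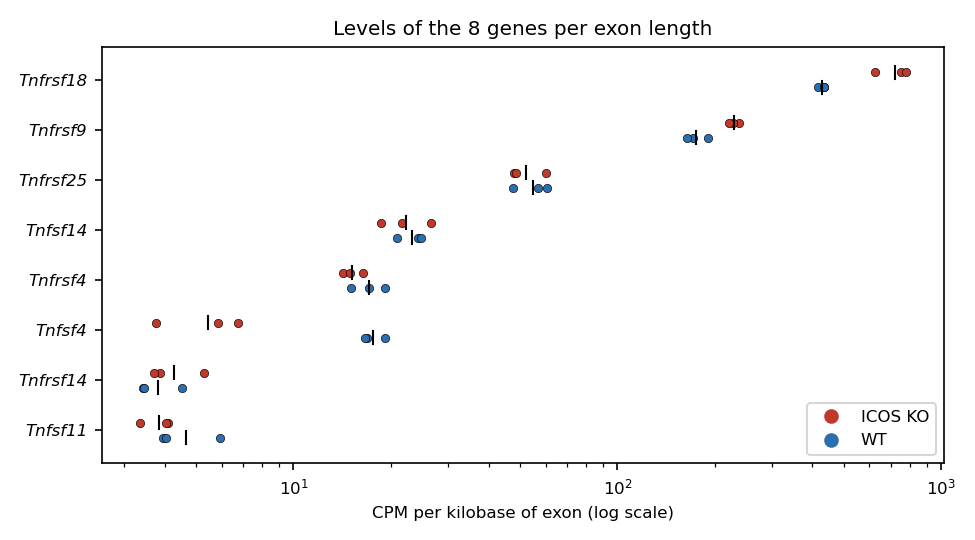
CPM per kilobase of exon (x axis, log scale) of the 8 genes, ordered by their mean in ICOS KO, with a point for each of 3 ICOS KO and 3 WT libraries and a vertical tick at each mean. GITR and 4-1BB lead in both groups, and Tnfsf4 lies near Tnfrsf4 in WT but near Tnfrsf14 in ICOS KO.

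GITR is a co-stimulatory receptor first described on T cells, where regulatory T cells carry much of it. Its gene Tnfrsf18 lies at chr4:156026164-156028895 on the plus strand of GRCm38 (mm10). Tnfrsf18 had 952, 1144 and 1182 CPM in ICOS KO replicates 1 to 3, against 632, 660 and 663 CPM in WT replicates 1 to 3. Every ICOS KO library lay above every WT library, and the WT libraries were close to each other. The mean was 1093 ± 123 CPM in ICOS KO and 652 ± 16.8 CPM in WT (SD, n = 3 each), which is 1.68-fold higher in ICOS KO. The log2 fold change was 0.75 ± 0.09 (SE; 95% interval 0.54 to 0.95), with an adjusted p of 0.0012. Without ICOS KO replicate 2 it was 0.72, with an adjusted p of 0.00372. Tnfrsf18 overlaps the antisense gene Gm16008, and the strand setting of the counting is not given, so reads of the pair cannot be told apart. Gm16008 was listed at 9.51 ± 3.16 CPM in ICOS KO and 5.97 ± 0.973 CPM in WT.

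4-1BB appears on lymphocytes after activation and supports their survival. Its gene Tnfrsf9 lies at chr4:150914562-150946102 on the plus strand. Tnfrsf9 had 647, 619 and 603 CPM in ICOS KO replicates 1 to 3, against 518, 466 and 448 CPM in WT replicates 1 to 3. The groups did not overlap, but the gap between the lowest ICOS KO library and the highest WT library was small beside that of GITR. The mean was 623 ± 22.6 CPM in ICOS KO and 477 ± 36.5 CPM in WT, a 1.31-fold difference. Its log2 fold change was 0.38 ± 0.09 (SE; 95% interval 0.19 to 0.58), with an adjusted p of 0.0381. Leaving out 1 library at a time, the call was kept in 1 of 6 cases, without ICOS KO replicate 1 (adjusted p = 0.0429). It was lost without ICOS KO replicate 2 (0.0617), ICOS KO replicate 3 (0.117), WT replicate 1 (0.0722), WT replicate 2 (0.206) or WT replicate 3 (0.0955), and with scaling by total counts (0.09). Tnfrsf9 overlaps the antisense gene Camta1, which was listed at 8.28 ± 2.47 CPM in ICOS KO and 5.35 ± 1.47 CPM in WT.

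For the 2 receptors that were higher in ICOS KO, the reference sequence in front of a RefSeq transcript start is shown as context, since the pair moved in the same direction. The stretches come from RefSeq windows of GRCm38.p6, chromosome 4, plus strand, and from the reference strain of that build rather than from the mice sequenced here. Each is written 5′ to 3′, and capitals mark a match to a searched motif.
Tnfrsf18, chr4:156026072-156026163, before the first annotated exon: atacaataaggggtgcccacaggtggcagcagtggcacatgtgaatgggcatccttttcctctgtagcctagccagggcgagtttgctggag
Tnfrsf18, chr4:156026213-156026242, STAT match: tgctctacacTTCACAGAAggcctttacaa
Tnfrsf9, chr4:150927749-150927917, before the first annotated exon of the window, with a STAT match: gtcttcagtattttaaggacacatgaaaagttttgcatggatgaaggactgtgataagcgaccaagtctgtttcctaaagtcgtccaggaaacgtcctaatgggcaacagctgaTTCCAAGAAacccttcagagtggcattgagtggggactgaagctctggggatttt
Tnfrsf9, chr4:150927946-150927975, NF-kB match: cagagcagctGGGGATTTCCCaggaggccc
Tnfrsf9, chr4:150927972-150927998, AP-1 match: gccctgctcagtTGAGTCAcaggtcct
These motifs were searched on both strands of the 250 bases before each start: the NF-kB consensus, AP-1 (TGANTCA), STAT (TTCNNNGAA) and the GATA factor motif (AGATAA). Of 32851 such windows in the RefSeq table, 7.25% held the NF-kB consensus, 6.75% AP-1, 7.02% STAT and 9.99% GATA. The NF-kB capitals of Tnfrsf9 cover 2 overlapping matches, and the AP-1 and STAT matches of this gene lie in the same window as them. The STAT match of Tnfrsf18 and the whole window shown for Tnfrsf9 lie inside the annotated genes, since these RefSeq starts lie behind the gene starts of GENCODE. A second RefSeq window of Tnfrsf9, chr4:150919905-150920154, held no match. Tnfrsf25, which was not called, held NF-kB and STAT matches in 1 of its windows, and Tnfsf14, also not called, held an AP-1 match. Windows were found for 7 of the 8 genes, 9 windows in all, and 4 of the genes held any match; Tnfsf4 was the gene without a window. A match shows only that these letters are present.

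OX40, a co-stimulator of activated T cells, did not pass the test. Its gene Tnfrsf4 (chr4:156013843-156016612, plus strand) had 19.4, 20.3 and 22.3 CPM in ICOS KO libraries, against 20.7, 23.3 and 26.2 CPM in WT libraries. The groups overlapped, with means of 20.7 ± 1.52 CPM in ICOS KO and 23.4 ± 2.78 CPM in WT. The log2 fold change was -0.18 ± 0.15 (SE; 95% interval -0.51 to 0.15; adjusted p = 0.533). The upper end of this interval lies below the lower end of that of GITR, 0.54. The genes are neighbours, separated by 9.55 kb.

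DR3 is the receptor of TL1A and co-stimulates ILC2s. Tnfrsf25 (chr4:152115934-152120119, plus strand) had 109, 137 and 111 CPM in ICOS KO libraries, against 138, 129 and 108 CPM in WT libraries. The groups overlapped over most of their range, and the log2 fold change was -0.07 ± 0.13 (SE; 95% interval -0.35 to 0.20; adjusted p = 0.786). HVEM, which binds LIGHT as well as the immunoglobulin family members BTLA and CD160, was the scarcest receptor. Tnfrsf14 (chr4:154921933-154928563, minus strand) had 5.55, 7.59 and 5.34 CPM in ICOS KO libraries, against 4.93, 6.52 and 4.98 CPM in WT libraries. Its log2 fold change was 0.17 ± 0.27 (SE; 95% interval -0.42 to 0.76; adjusted p = 0.766). With 72 to 101 estimated counts in ICOS KO libraries and 76 to 124 in WT libraries, its interval reaches 0.76, so a difference as large as that of GITR is not excluded for HVEM at this depth.

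Among the ligands, OX40L had the log2 fold change farthest from 0 of the 8 genes. It is a membrane protein best known from antigen-presenting cells. Tnfsf4 (chr1:161395409-161418410, plus strand) had 12.4, 6.92 and 10.8 CPM in ICOS KO replicates 1 to 3, against 35.4, 31.1 and 30.6 CPM in WT replicates 1 to 3. The highest ICOS KO library lay far below the lowest WT library, and ICOS KO replicate 2 was the lowest of all. The mean was 10.0 ± 2.82 CPM in ICOS KO and 32.4 ± 2.66 CPM in WT (SD, n = 3 each), which is 3.22-fold lower in ICOS KO. The log2 fold change was -1.69 ± 0.20 (SE; 95% interval -2.13 to -1.24), with an adjusted p of 0.000889. Tnfsf4 was lower in ICOS KO in all 16 alternative fits, with log2 fold changes between -1.87 and -1.48, the smallest of them without ICOS KO replicate 2.

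In bulk RNA, fewer cells of a type and less RNA per cell cannot be told apart, and markers of other cells moved with Tnfsf4. Of the 11 mast cell and basophil markers listed, 7 were tested and 6 were lower in ICOS KO, with a median log2 fold change of -2.66. Their summed level was 56.8 to 70.2 CPM in ICOS KO libraries and 342 to 398 CPM in WT libraries, and no marker of the list was at 0 in every library of a group. In WT the sum was mostly Tpsab1, at 21.0 to 34.7 CPM in ICOS KO and 231 to 280 CPM in WT. Kit, the tested marker that was not called, had 20.2 ± 2.86 CPM in ICOS KO and 20.3 ± 1.4 CPM in WT. Cpa3, the mast cell carboxypeptidase, had 0.451 to 2.52 CPM in ICOS KO and 25.1 to 31.5 CPM in WT, and the IgE receptor gene Fcer1a had 0 to 0.225 CPM in ICOS KO and 1.63 to 1.78 CPM in WT. Of the 10 markers of myeloid and dendritic cells, 6 were tested, and Csf1r alone was called, lower in ICOS KO. Log2 fold changes were negative for 5 of the 6 and positive for 1, with a median of -0.65. The list summed to 85.7 to 113 CPM in ICOS KO and 118 to 161 CPM in WT. Of 10 T cell markers, 6 were tested (median log2 fold change -0.38). Cd3e was lower, at 2.3 ± 1.34 CPM in ICOS KO and 8.87 ± 1.41 CPM in WT (adjusted p = 0.0281). Their sum, 80.1 to 107 CPM in ICOS KO and 72.1 to 93.4 CPM in WT, was mostly Cd3g and Cd247, which were not called. B cell markers summed to 29.7 to 45.8 CPM in ICOS KO and 25.2 to 26.3 CPM in WT, and 1 of them, Cd79b, was higher in ICOS KO. The T cell markers Cd8a and Cd8b1, which were not tested, were at 0 in every ICOS KO library. In WT libraries Cd8a had 0 to 0.852 CPM and Cd8b1 had 0 to 0.894 CPM. Of 7 markers of NK cells and other ILCs, 4 were tested and 2 were lower. Ncr1 had 0 to 0.0742 CPM in ICOS KO and 1.21 to 1.64 CPM in WT (adjusted p = 0.00713), and Tbx21 had 0 to 0.388 CPM in ICOS KO and 1.11 to 2.83 CPM in WT (adjusted p = 0.0375). The sum of this list, 39.3 to 61.3 CPM in ICOS KO and 22.1 to 36.4 CPM in WT, was mostly Il22, at 46.8 ± 12.4 CPM in ICOS KO and 24 ± 7.93 CPM in WT (adjusted p = 0.0535). Markers of stroma and epithelium summed to 143 to 255 CPM in ICOS KO and 140 to 228 CPM in WT. Of the 4 tested, 2 had positive and 2 had negative log2 fold changes, and 1, Epcam, was called higher in ICOS KO. The lung epithelial gene Sftpc, not called, had 0.15 to 15.6 CPM in ICOS KO and 22.6 to 46.6 CPM in WT (log2 fold change -2.02, edgeR adjusted p = 0.141). Scgb1a1, also not called, had 0 to 91.5 CPM in ICOS KO and 27.3 to 98.5 CPM in WT. The part of other cells in the levels of Tnfsf4 or of the other 7 genes was not tested.

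LIGHT and RANKL did not pass the test. LIGHT binds HVEM and the lymphotoxin beta receptor. Tnfsf14 (chr17:57189492-57194177, minus strand) had 40.0, 48.9 and 34.3 CPM in ICOS KO libraries, against 44.9, 45.7 and 38.6 CPM in WT libraries. These values overlapped, with a log2 fold change of -0.07 ± 0.15 (SE; 95% interval -0.40 to 0.26; adjusted p = 0.831). RANKL, the cytokine that drives osteoclast formation, binds RANK. Tnfsf11 (chr14:78277445-78308043, minus strand) had 9.17, 7.52 and 9.06 CPM in ICOS KO libraries, against 8.86, 9.04 and 13.3 CPM in WT libraries. WT replicate 3 was the highest, and the other 5 libraries lay close together. Its log2 fold change was -0.27 ± 0.23 (SE; 95% interval -0.78 to 0.23; adjusted p = 0.528).

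Receptor and ligand were then set against each other within each library, where the ratio does not depend on library scaling. Both genes of a pair were tested for 4 pairs. The ligands of GITR and DR3, Tnfsf18 and Tnfsf15, were sought but had no counts under these names. The OX40 to OX40L ratio, Tnfrsf4 over Tnfsf4 in CPM, was 1.56, 2.93 and 2.08 in ICOS KO libraries, against 0.583, 0.751 and 0.857 in WT libraries. The lowest ICOS KO library lay above the highest WT library. The difference of the mean log2 ratios was 1.56, or 2.94-fold, which rests on the values of Tnfsf4 already given. The 4-1BB to 4-1BBL ratio, Tnfrsf9 over Tnfsf9, was 26.0, 20.9 and 19.5 in ICOS KO libraries, against 16.4, 13.6 and 14.6 in WT libraries, a 1.49-fold difference with separated groups. Its ligand gene Tnfsf9 itself overlapped between the groups, at 28.5 ± 3.18 CPM in ICOS KO and 32.3 ± 1.89 CPM in WT.

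The HVEM to LIGHT ratio, Tnfrsf14 over Tnfsf14, was 0.139, 0.155 and 0.156 in ICOS KO libraries, against 0.11, 0.143 and 0.129 in WT libraries, and the groups overlapped. The RANK to RANKL ratio, Tnfrsf11a over Tnfsf11, was 1.51, 1.93 and 1.84 in ICOS KO libraries, against 3.02, 2.37 and 1.12 in WT libraries. Here the WT libraries spread over a wider range than the ICOS KO libraries. The exact two-sided permutation test gave p = 0.1 for the OX40 and 4-1BB pairs, the smallest value that 3 against 3 libraries allow. It gave 0.2 for the HVEM pair and 0.8 for the RANK pair. After adjustment over the 4 pairs, the exact permutation p was 0.2 for the first 2 pairs, 0.267 for HVEM and 0.8 for RANK, so no pair passed the threshold.

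**Figure D3:**
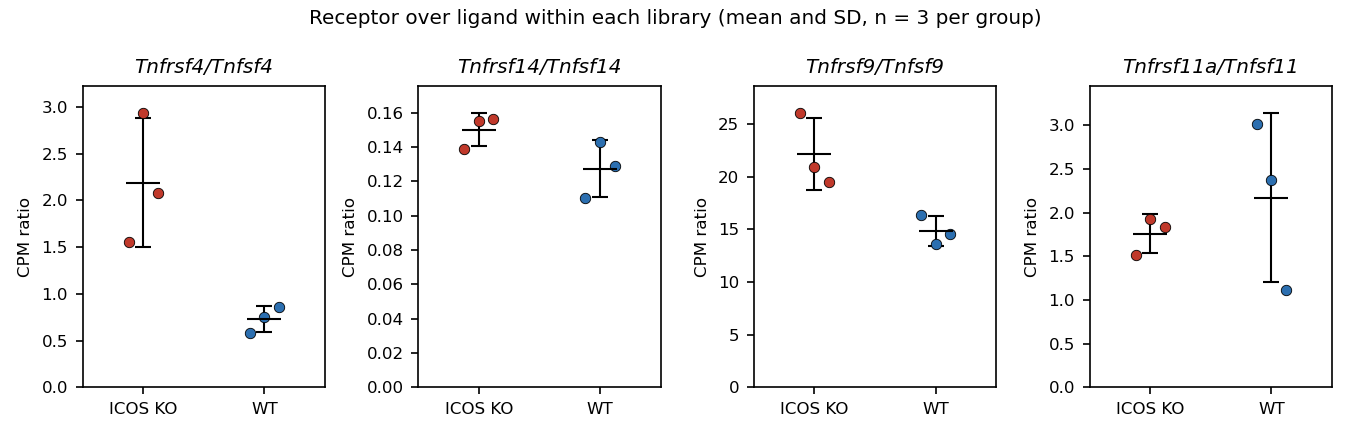
Ratio of receptor CPM to ligand CPM within each library (y axis, linear, starting at 0) for 4 binding pairs in ICOS KO and WT, with points for libraries and bars for the mean and SD. The ratio for Tnfrsf4 and Tnfsf4, 1.56 to 2.93 in ICOS KO and 0.583 to 0.857 in WT, and that for Tnfrsf9 and Tnfsf9 are separated, and the other ratios overlap.

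The rest of the family was read from lists of its other genes. Of 17 other TNF receptors tested, none passed the threshold in edgeR, 4 had an unadjusted p under 0.05 (19.9% of all tested genes did), and the median log2 fold change was -0.17. Other fits gave calls for genes that are named here after their values were seen. DESeq2 and voom with quality weights called Tnfrsf21 (DR6) lower, which was at 10.3 ± 1.08 CPM in ICOS KO and 16.8 ± 1.73 CPM in WT (edgeR adjusted p = 0.0605), and the second also called Cd27 higher, which was at 5.76 ± 1.16 CPM in ICOS KO and 2.7 ± 1.19 CPM in WT (edgeR adjusted p = 0.137). The most abundant were Tnfrsf8 (CD30), at 323 ± 43.5 CPM in ICOS KO and 284 ± 23.5 CPM in WT, Tnfrsf1b, a receptor for TNF, at 186 ± 33.9 CPM in ICOS KO and 195 ± 12.5 CPM in WT, and Tnfrsf13b (TACI), at 26.5 ± 5.48 CPM in ICOS KO and 22.6 ± 2.87 CPM in WT. Cd160, a partner of HVEM, had 6.85, 6.01 and 6.61 CPM in ICOS KO libraries, against 3.25, 3.16 and 3.61 CPM in WT libraries, with a log2 fold change of 0.96 ± 0.27 and an adjusted p of 0.0818. It was called higher with DESeq2 (adjusted p = 0.0279) and with voom with quality weights (0.036). Btla did not pass the filter on low counts.

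Among the other ligands, 4 of 8 tested were lower in ICOS KO and none was higher. Over all tested genes, 2.01% were lower. All 8 ligands had negative log2 fold changes, with a median of -1.06. Lta codes for lymphotoxin alpha, which is secreted or anchored to the membrane by lymphotoxin beta. Lta had 49.6, 54.0 and 59.6 CPM in ICOS KO libraries, against 202, 192 and 188 CPM in WT libraries, a log2 fold change of -1.84 ± 0.11 (SE; adjusted p = 4.24e-06). Its partner Ltb had 42.8, 61.9 and 48.9 CPM in ICOS KO libraries, against 140, 140 and 104 CPM in WT libraries (log2 fold change -1.32 ± 0.16, adjusted p = 0.000844). The cytokine gene Tnf had 7.94, 6.69 and 9.50 CPM in ICOS KO libraries, against 22.9, 22.3 and 18.8 CPM in WT libraries (log2 fold change -1.41 ± 0.19, adjusted p = 0.00169). For these genes no ICOS KO library reached the lowest WT library. Ltb (chr17:35194439-35196320), Tnf (chr17:35199381-35202007) and Lta (chr17:35203165-35205351) lie close together, so their calls do not come from separate loci. Cd70, the ligand of CD27, had 0.0646, 0 and 0.223 CPM in ICOS KO libraries, at or under 3 reads in each, against 1.99, 0.999 and 1.38 CPM in WT libraries. Its adjusted p was 0.0276, and leaving out any 1 of the 6 libraries ended the call. Lta, Ltb and Tnf were lower in all 16 alternative fits, as Tnfsf4 was.

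**Figure D4:**
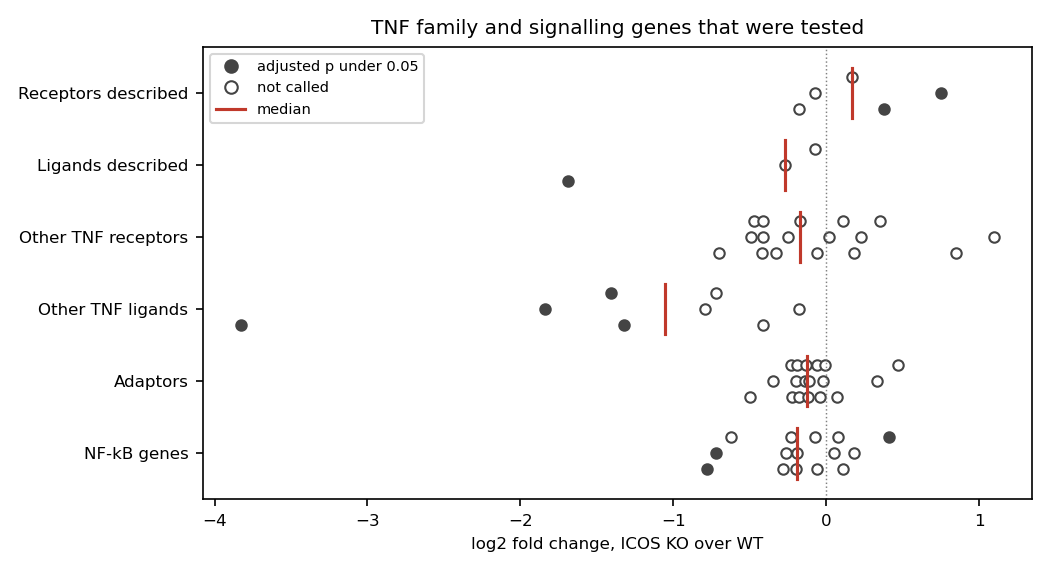
Log2 fold change of ICOS KO over WT (x axis) for the tested genes of 6 lists; each point is a gene, filled where the adjusted p was under 0.05, and the red line is the median of the list. The 8 other TNF ligands lie below 0 with a median of -1.06, whereas the 17 other TNF receptors lie on both sides of 0 with a median of -0.17.

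Adaptors and NF-kB genes, which act downstream of these receptors, were read in the same way. Among 18 adaptors tested, none passed the threshold in edgeR, 2 had an unadjusted p under 0.05 and the median log2 fold change was -0.12; DESeq2 called 1 lower, Tnip1, an inhibitor of NF-kB at 37.6 ± 2.5 CPM in ICOS KO and 53.3 ± 7.42 CPM in WT (edgeR adjusted p = 0.0694), which is named after its values were seen. Traf1 was at 209 ± 14.9 CPM in ICOS KO and 226 ± 14.4 CPM in WT, and Traf2 at 90.9 ± 4.64 CPM in ICOS KO and 100 ± 12.8 CPM in WT. Traf3ip3, which codes for a TRAF3-interacting protein, was at 107 ± 5.81 CPM in ICOS KO and 108 ± 0.414 CPM in WT. Of 15 NF-kB genes tested, 1 was higher and 2 were lower, with a median of -0.19. Bcl3, an atypical IkB protein that acts in the nucleus, had 289, 269 and 283 CPM in ICOS KO libraries, against 218, 209 and 205 CPM in WT libraries (log2 fold change 0.41 ± 0.09, adjusted p = 0.0259). Nfkb2, the precursor of the non-canonical subunit, had 62.7, 47.5 and 51.9 CPM in ICOS KO libraries, against 103, 87.7 and 76.8 CPM in WT libraries (log2 fold change -0.72 ± 0.14, adjusted p = 0.0169). Tnfaip3, an ubiquitin-editing inhibitor of NF-kB, was at 10.6 ± 1.68 CPM in ICOS KO and 18.3 ± 2.13 CPM in WT (log2 fold change -0.78 ± 0.19, adjusted p = 0.0461). Leaving out 1 library at a time ended each of these 3 calls in at least 4 of the 6 cases. The abundant Nfkb1 and Nfkbia had log2 fold changes of 0.08 ± 0.09 and -0.07 ± 0.09, with adjusted p of 0.627 and 0.702.

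All 5 receptors lie on chromosome 4, with starts 12321 bp (OX40), 1.1 Mb (HVEM), 3.91 Mb (DR3) and 5.11 Mb (4-1BB) from that of GITR. The 3 tested genes on each side of each of the 8 genes gave 44 distinct neighbours outside the set, of which 5 were called. Over all tested genes, 3.29% were called in either direction. None of the 6 neighbours of Tnfrsf18 was called, and their log2 fold changes ran from -1.09 to 0.67. Near Tnfrsf9, Park7, which codes for the redox protein DJ-1 and starts 17.4 kb away, was 490 ± 63.6 CPM in ICOS KO and 358 ± 15.3 CPM in WT (log2 fold change 0.45 ± 0.11, adjusted p = 0.041). Errfi1, an inhibitor of the EGF receptor that starts 60.6 kb away, was 19.5 ± 1.0 CPM in ICOS KO and 9.71 ± 1.99 CPM in WT (1.01 ± 0.19, adjusted p = 0.0141). Both were higher in ICOS KO, as Tnfrsf9 was. The remaining neighbours of Tnfrsf9 were not called and went both ways. Their log2 fold changes were 0.59 for Rps15a-ps3, 0.63 for Camta1, -0.45 for Per3 and -0.13 for Vamp3.

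Near Tnfsf4, the nearest tested gene was Prdx6, a peroxiredoxin gene 155.0 kb away, with 211 ± 4.42 CPM in ICOS KO and 277 ± 6.78 CPM in WT (log2 fold change -0.39 ± 0.09, adjusted p = 0.031). The other 5 neighbours of Tnfsf4 were not called and had log2 fold changes from -0.40 to 0.0. Tnfsf4 shares chromosome 1 with Icos, whose start lies 100417482 bp away. Next to Tnfsf14, Cd70 and the complement gene C3 were called. C3 was low, at 0.411 ± 0.282 CPM in ICOS KO and 2.58 ± 0.371 CPM in WT (log2 fold change -2.60 ± 0.57, adjusted p = 0.0289). With 1 library left out at a time, Park7, Prdx6 and C3 each kept the call in only 1 of 6 fits, and Errfi1 in 4 of 6. The edgeR adjusted p in these fits rose up to 0.199 for Park7, 0.187 for Prdx6, 0.126 for C3 and 0.075 for Errfi1. Park7 also lost the call with total counts (0.0617), and Prdx6 with length and GC trends removed, where its log2 fold change was -0.23 (adjusted p = 0.125).

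**Figure D5:**
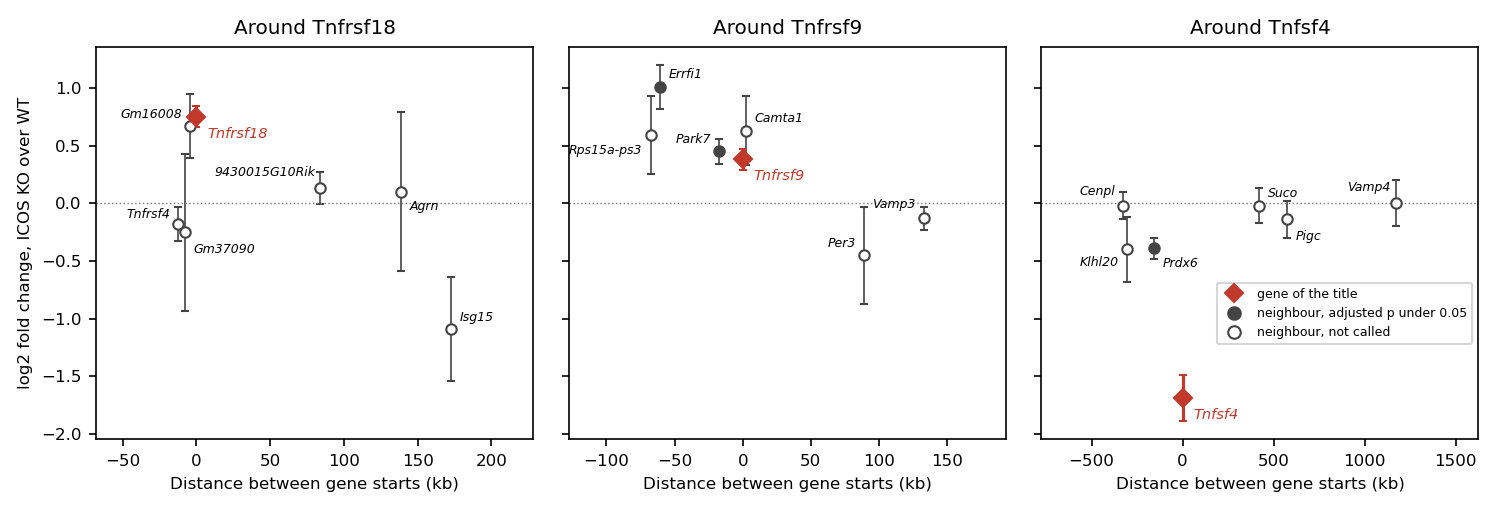
Log2 fold change of ICOS KO over WT (y axis, with SE) for the 3 tested genes on each side of Tnfrsf18, Tnfrsf9 and Tnfsf4, against the distance between gene starts in kb (x axis, genome order). Tnfsf4 at -1.69 lies apart from its 6 neighbours, which lie between -0.40 and 0.0, and Tnfrsf4 at -0.18 lies below Tnfrsf18 at 0.75.

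The genes most like each called gene were sought by the root mean square difference of centred log2 CPM over the 6 libraries, among 10066 genes with at least 5 CPM in the higher group. Enah, a regulator of actin, was nearest to Tnfrsf18 with a difference of 0.034, at 12 ± 1.63 CPM in ICOS KO and 7.11 ± 0.0936 CPM in WT. The next was Castor1, an arginine sensor of the mTORC1 pathway, with 0.052, at 159 ± 16 CPM in ICOS KO and 99.2 ± 5.96 CPM in WT. For Tnfrsf9 the nearest were Chac1, which degrades glutathione, with 0.038, and the dipeptidase gene Cndp2, with 0.046. For Tnfsf4 they were P4ha2, a collagen prolyl hydroxylase, with 0.072, and G530011O06Rik with 0.115. P4ha2 had 22, 11.5 and 20 CPM in ICOS KO libraries, against 62.6, 59.7 and 53.5 CPM in WT libraries, and like Tnfsf4 it was lowest in ICOS KO replicate 2. Of these 6 genes, Castor1, Cndp2, P4ha2 and G530011O06Rik were themselves called. Cndp2, with an adjusted p of 0.0498, lost its call in 8 of 16 alternatives, among them all 6 with a library left out (0.0547 to 0.202), and G530011O06Rik lost it without WT replicate 2 (0.055). Enah, with an adjusted p of 0.0725, was called in 4 of 16 alternatives. They were read from the same 6 libraries, and no test was made on the likeness.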

How the data were processed

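Libraries were prepared from cultured, sorted lung ILC2s (3 ICOS KO, 3 WT) by SMARTer cDNA amplification from low RNA input, per the labels' protocols. The design text speaks of duplicates; all 6 libraries were used. The submitters' processing notes name Partek 10.0, STAR 2.7.8 and DESeq2, and mm10 as the build. How reads were assigned to genes, with which annotation and with or without strand, is not given in these sources.

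The deposited table holds estimated counts, of which 39.4% were not whole; the lowest gene total was 10. Estimated counts can divide reads between overlapping genes. Here they were rounded, filtered with filterByExpr (13691 of 18122 genes passed), scaled with TMM and compared between ICOS KO and WT in a model of genotype alone with edgeR's quasi-likelihood F test (edgeR 4.0.16, R 4.3.3, limma 3.58.1). P-values were adjusted by Benjamini-Hochberg over all tested genes, and genes under 0.05 were called. The spread between libraries (biological coefficient of variation) was 18.5%. SE and the 95% interval are those implied by the F statistic. The test was checked on simulated data. It recovered 54% of genes changed 1.5-fold, 84% of those changed 2-fold and 100% of those changed 4-fold. It also called 6 unchanged genes in that simulation. Changed genes were drawn only from those above a floor of mean counts, and each gene took its spread from the trend with abundance. The rates do not cover scarcer genes or genes with a spread off that trend. Pairs of libraries of 1 group differed by a chi-square of at least 8.85 per degree of freedom, so none was counted as a copy. Reads without molecular identifiers cannot be counted as separate molecules; 3 reads equal 0.194 to 0.225 CPM in ICOS KO and 0.157 to 0.197 CPM in WT libraries.

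Exon lengths, positions and overlaps came from the GENCODE annotation of GRCm38 (the build named mm10), and promoter windows from RefSeq (GRCm38.p6). Ratios were tested with an exact two-sided permutation test. Alternatives were RLE size factors, total counts, upper quartile, DESeq2 1.42.0, voom with and without quality weights, no filter, a filter of 5 CPM in 3 libraries, a replicate block, removal of length and GC trends, and each library left out. The 8 genes, the lists and the tests were chosen with earlier results of these data known. Named genes were the 8 genes, called genes and the 3 most abundant of each list of the family, binding partners, called neighbours, the 2 most alike genes of each called gene, and Icos.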

Additional observations from a re-analysis of the deposited data

How the results depend on the processing

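GITR and OX40L kept direction and call in all 16 alternatives; over the 8 genes, 125 of 128 alternative log2 fold changes kept their sign. Changes of call were those of Tnfrsf9, which had 0.32 with total counts and 0.34 to 0.45 with a library left out, so that the number of the 8 genes called higher was 1 with total counts and 1 to 2 with a library left out. With a library left out, signs turned near 0 for Tnfrsf14 (-0.0037 without ICOS KO replicate 2, up to 0.31), Tnfrsf25 (0.0033 without WT replicate 1, down to -0.18) and Tnfsf14 (0.04 without ICOS KO replicate 3, down to -0.21). They also turned for Tnfrsf1b (-0.21 to 0.04 with a library left out, the highest without ICOS KO replicate 3, and 0.07 with length and GC trends removed), Traf1 (0.08) and Traf2 (0.03) with these trends removed, and Traf3ip3 (0.0084 with upper quartile, 0.0062 with quality weights, -0.06 to 0.02 with a library left out, the highest without ICOS KO replicate 2, and 0.14 with the trends removed). The difference between ICOS KO and WT in the mean log2 ratio of RANK to RANKL was -0.19, and ran from -0.61 without WT replicate 3 to 0.10 without WT replicate 1. Of all genes, 176 were higher and 275 lower; the counts were 415 and 514 with DESeq2, 399 and 507 with quality weights, 374 and 410 with the replicate block, 346 and 252 with the trends removed, and 127 and 324 with total counts. With a library left out they ran from 69 to 491 higher and from 123 to 599 lower; 193 genes in all were called without WT replicate 1, 194 without WT replicate 2, 216 without ICOS KO replicate 3 and 1090 without ICOS KO replicate 1. The share of higher among called genes was 39.0%, against 28.2% with total counts and 57.9% with the trends removed, which moved the median of all genes by 0.05; total counts moved it by -0.07. Other TNF receptors called higher numbered 1 with quality weights. Those called lower numbered 1 with total counts, DESeq2, quality weights and the replicate block, and 0 to 1 with a library left out. Adaptors called lower numbered 1 under those same 4 settings, and those called higher 0 to 1 with a library left out. NF-kB genes called higher numbered 0 with total counts and 0 to 1 with a library left out; those called lower numbered 1 with upper quartile, voom, no filter and the trends removed, and 0 to 2 with a library left out. The cause of these changes was not tested.

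The labels do not say whether replicate numbers pair the libraries, and the correlations do not settle it. Same-numbered libraries correlated at 0.0868, 0.0784 and 0.0643 in their deviations from the group means, below the limit of 0.1 used for pairing. Other combinations correlated at -0.0822 to 0.00651. Each library correlated best with its own number, which is a hint from the data and not from the design. The replicate block gave 784 calls in place of 451 and changed no call among the 8 genes. With 3 libraries a group, exact tests of ratios cannot go below 0.1, and small differences of scarce genes such as Tnfrsf14 and Tnfsf11 were not detectable.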

Other observations

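A pair of ratios between receptors was computed after the values had been seen, so they are descriptions. Tnfrsf18 over Tnfrsf4 in CPM was 49.1, 56.4 and 52.9 in ICOS KO libraries, against 30.6, 28.3 and 25.3 in WT libraries, a 1.89-fold difference with separated groups (exact permutation p = 0.1, the smallest possible, and 0.2 adjusted over both ratios). Tnfrsf18 over Tnfrsf9 was 1.47, 1.85 and 1.96 in ICOS KO libraries, against 1.22, 1.42 and 1.48 in WT libraries, and the groups overlapped (exact permutation p = 0.2, adjusted 0.2).

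Among genes next to Icos on chromosome 1, the co-inhibitory receptor gene Ctla4 was at 17.1 ± 1.4 CPM in ICOS KO and 11.0 ± 1.1 CPM in WT (SD, n = 3 each; log2 fold change 0.63 ± 0.17, adjusted p = 0.0748), and the co-stimulatory receptor gene Cd28 at 6.8 ± 1.55 CPM in ICOS KO and 8.76 ± 1.22 CPM in WT (-0.36 ± 0.25, adjusted p = 0.423). Neither passed the threshold.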
